A study of Mus musculus with 6 samples.

Results

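The comparison set skin at the outlet of a cytokine pump against skin at the outlet of a PBS pump and asked which transcripts lay on one side of PBS under all of the cytokines. Its members are the probe sets for which the IL-13 array, the TSLP array and both TGF-beta arrays were all higher, or all lower, than the single PBS local array. They were chosen by these measured differences and ranked by the smallest of the 4, so the ranks and values of the members are a description. Of 22626 probe sets that are not AFFX controls, 8890 met the rule. Of these, 4925 were among the 12256 probe sets that reached the median signal of all arrays, 165 units, on at least 1 of the 5 outlet arrays. All counts below refer to these 12256 unless stated.

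RNA came from C57BL/6 mice that carried a subcutaneous pump for 7 days. The groups were IL-13 (1 array), TSLP (1 array), TGF-beta (2 arrays, mouse 1 and mouse 2) and PBS (1 array), all from the skin at the outlet, and PBS distal (1 array), from abdominal skin away from the outlet. Doses, sexes and ages are not given in the labels, nor whether both PBS pieces came from one mouse. Differences are in log2(signal + 27.4), called log2 below, where 1 is 2-fold. That scale understates the change of dim transcripts.

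IL-13 is a type 2 cytokine that acts through IL-4 receptor alpha on fibroblasts, macrophages and epithelium, and TSLP is an epithelial cytokine that acts mainly on dendritic cells, lymphocytes and other leukocytes. TGF-beta signals through SMAD proteins and is known for its control of matrix genes and of immune cells. The pump itself leaves a wound, in which neutrophils, macrophages and fibroblasts gather and proteases remodel the matrix. ELR chemokines such as CXCL5 and CXCL2 draw neutrophils through the receptor CXCR2, and metalloproteinases such as MMP3 and MMP13 cleave matrix proteins.

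Promoter sequences are shown for 3 of the leading members because they hold the pairs of one family that stood together among the highest ranks, the chemokine gene Cxcl2 beside Cxcl5 and the protease genes Mmp3 and Mmp13. Each run gives the 250 bases before the annotated start, on the plus strand, from RefSeq on the build GRCm38.p6. Capitals mark matches, on either strand, to the NF-kB consensus, to the AP-1 motif (TGANTCA) or to the TATA box (TATAAA).
Cxcl2 (chr5:90903649-90903898): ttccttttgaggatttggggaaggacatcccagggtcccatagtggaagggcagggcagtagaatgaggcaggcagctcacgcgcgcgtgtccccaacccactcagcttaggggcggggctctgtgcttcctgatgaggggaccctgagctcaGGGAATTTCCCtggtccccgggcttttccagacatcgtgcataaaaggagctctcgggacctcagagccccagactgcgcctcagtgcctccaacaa
Mmp13 (chr9:7272264-7272513): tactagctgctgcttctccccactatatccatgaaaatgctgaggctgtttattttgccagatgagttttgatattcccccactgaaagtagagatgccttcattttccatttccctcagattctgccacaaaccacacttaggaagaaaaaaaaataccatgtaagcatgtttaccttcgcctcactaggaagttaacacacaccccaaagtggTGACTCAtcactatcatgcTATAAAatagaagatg
Mmp3 (chr9:7445572-7445821): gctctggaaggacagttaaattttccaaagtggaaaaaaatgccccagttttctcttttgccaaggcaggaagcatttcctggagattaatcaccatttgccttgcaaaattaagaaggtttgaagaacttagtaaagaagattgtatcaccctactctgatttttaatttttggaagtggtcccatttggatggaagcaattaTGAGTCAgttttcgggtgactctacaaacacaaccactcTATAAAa
The Cxcl2 window held the NF-kB consensus, in 2 overlapping matches. It was matched in 7.25% of 32851 windows of the same length before annotated starts. Both protease windows held the AP-1 letters, starting 35 bases before the start of Mmp13 and 46 before that of Mmp3, against 6.75% of all windows. Both also held the TATA letters, as did 12.4% of all windows. A match describes the letters and is not a measured site.

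Few transcripts stood clearly on one side of PBS under all cytokines. All 4 arrays were higher than PBS local for 1929 probe sets (15.7% of those tested) and lower for 2996 (24.4%), and most of these differences were small. The split depended on scaling, with 2358 higher and 2694 lower after quantile normalization and 2491 higher and 2279 lower with each array centred on its median. The median of the smallest difference was 0.09 among the higher and -0.10 among the lower members. At least 1.5-fold in every array, 38 probe sets were higher (0.31%) and 34 lower (0.277%). These 2 counts were 79 and 71 without the TSLP array, 81 and 60 without TGF-beta mouse 1, and 66 and 44 without TGF-beta mouse 2, where fewer arrays had to pass. Of the 34 lower probe sets, 8 were below the median signal on all 4 cytokine arrays. They passed the filter only through PBS local, where they were high. Of the 38 higher probe sets, 15 were below the median signal on PBS local. Those passed the filter only through cytokine arrays, where they were high. At 2-fold in every array, 7 were higher (0.0571%) and 1 was lower (0.00816%). Single arrays differed from PBS local at least 2-fold far more often. IL-13 had 159 probe sets higher (1.3%) and 48 lower (0.392%), and TSLP had 119 higher (0.971%) and 46 lower (0.375%). TGF-beta mouse 1 had 48 higher (0.392%) and 77 lower (0.628%), and TGF-beta mouse 2 had 198 higher (1.62%) and 168 lower (1.37%). PBS distal itself had 98 higher (0.8%) and 425 lower (3.47%).

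All 4 differences share the same PBS local array, so an error on that array moves them together. With the 4 cytokine arrays as 1 group in limma, 0 of 12256 probe sets were called against PBS local, with 450 at an unadjusted p under 0.05 and a lowest Benjamini-Hochberg adjusted p of 0.959. Array-wide trimmed means lay between 500.16 and 500.2 units. The ratio of the 3' to the 5' Actb control signal was 1.19 to 1.25 on the cytokine arrays, 1.13 on PBS local and 1.25 on PBS distal, and its part in the results was not tested.

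PBS distal serves as a second PBS value, from another body site. Of the 38 higher probe sets past 1.5-fold, PBS distal lay on the other side of PBS local in 22, between PBS local and the nearest cytokine array in 7, and level with or beyond the nearest cytokine array in 9. Of the 34 lower ones, it lay on the other side in 5, between in 15, and beyond the nearest in 14. All 4 cytokine arrays were above both PBS arrays for 928 probe sets (7.57%) and below both for 1475 (12%). Counted from the nearer of the 2 PBS arrays, 23 probe sets were at least 1.5-fold higher in every cytokine array (0.188%) and 9 at least 1.5-fold lower (0.0734%). All 7 probe sets past 2-fold higher were past 2-fold from both PBS arrays.

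The neutrophil chemokine gene Cxcl5 ranked first among the higher members, and Cxcl2 was also past 2-fold. Cxcl5, which encodes a ligand of CXCR2, had signals of 1883 under IL-13, 1662 under TSLP, and 1036 and 334 in the TGF-beta mice, against 67.4 on PBS local and 10.6 on PBS distal. Every cytokine array was above both PBS arrays, TGF-beta mouse 2 being the lowest of the 4. The differences from PBS local were 4.33, 4.15, 3.49 and 1.93, a mean of 3.48 ± 1.09 (SD, n = 4 arrays). Cxcl2, a second CXCR2 ligand, had 1051 and 879 under IL-13 and TSLP and 306 and 244 under TGF-beta, against 102 on PBS local and 15 on PBS distal. Its differences were 3.05, 2.80, 1.36 and 1.07, so that both TGF-beta mice lay below the IL-13 and TSLP arrays. Cxcl1 was a member only by a small margin, with 2.72 and 2.78 under IL-13 and TSLP and 0.40 and 0.11 under TGF-beta. Pf4, a platelet chemokine of the same CXC family, differed by 0.61, 0.16, 0.61 and 0.35. Of the 5 measured probe sets in the list of neutrophil chemokines and receptors, 4 were higher on all cytokine arrays (80%) and 0 lower. Over all probe sets 15.7% were higher and 24.4% lower. The median mean difference of the list was 1.5, against -0.03 over all probe sets. Cxcl5, Cxcl2 and Cxcl1 were below the median signal on PBS local (67.4, 102 and 162 units). They passed the filter only through cytokine arrays. Pf4 was above the median signal on PBS local (4264 units).

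**Figure D1:**
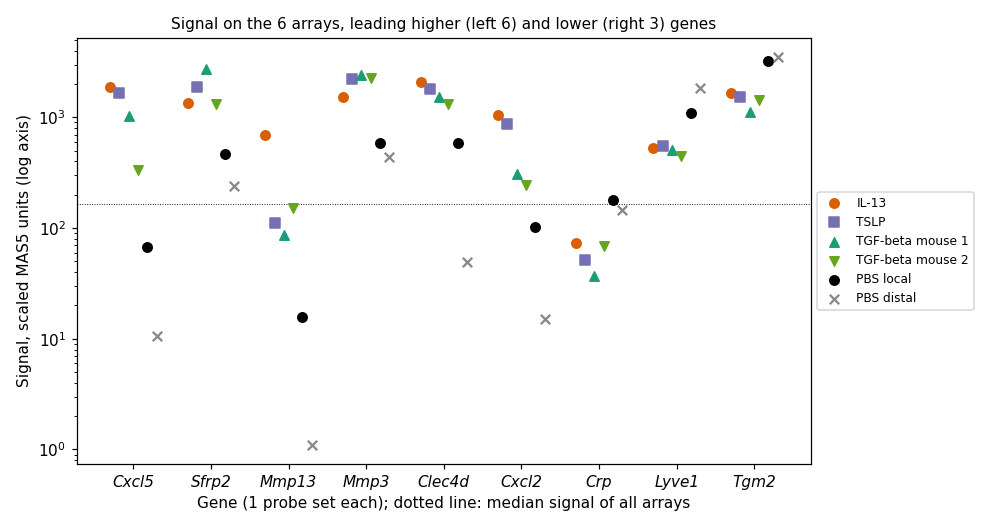
Signal of 9 leading genes (x axis, 1 probe set each) on the 6 arrays, in scaled MAS5 units on a log axis, 1 point an array, with the median of all arrays as a dotted line. For Cxcl5, Sfrp2, Mmp13, Mmp3, Clec4d and Cxcl2 the 4 cytokine points lie above both PBS points, and for Crp, Lyve1 and Tgm2 they lie below both.

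Matrix proteases were also among the leading members, ranking above Cxcl2. Mmp3, the stromelysin that cleaves proteoglycans and activates other proteases, had 1526 units under IL-13, 2203 under TSLP, and 2431 and 2252 under TGF-beta, against 590 on PBS local and 435 on PBS distal. The 4 cytokine arrays lay close together, with differences of 1.33, 1.85, 1.99 and 1.88. Mmp13, the interstitial collagenase, had 692 units under IL-13 but 112 under TSLP and 87.0 and 151 under TGF-beta, against 15.8 on PBS local and 1.11 on PBS distal. Its differences were 4.06, 1.69, 1.4 and 2.04. Only the IL-13 array was above the median signal of 165 for this gene, so the other values are dim. Mmp12, the macrophage elastase, differed by 3.90, 2.79, 1.71 and 0.66, with PBS distal at 0.80, so that TGF-beta mouse 2 lay between both PBS arrays. Mmp11 differed by 0.40, 0.22, 0.96 and 1.06. Mmp13, Mmp12 and Mmp11 were below 165 units on PBS local (15.8, 23.4 and 88.6). They reached the filter only through cytokine arrays, where they were high. In the list of matrix metalloproteinases, 12 of 20 probe sets were higher on every cytokine array (60%, against 15.7% of all probe sets) and 0 lower. The list had a median mean difference of 0.31 and medians of 0.36, 0.30, 0.40 and 0.12 on the separate arrays.

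Among the inhibitors of proteases named here, Timp3 alone was lower. Timp1, an inhibitor of metalloproteinases, had 3579 and 2767 units under IL-13 and TSLP and 3021 and 2210 under TGF-beta, against 1473 on PBS local and 255 on PBS distal. All 4 were thus above PBS local, which was itself far above distal skin. Slpi, an inhibitor of leukocyte elastase, was higher by 0.93, 0.68, 0.91 and 0.76. Timp3, a matrix-bound inhibitor, was lower by -0.40, -0.51, -0.85 and -0.72, with PBS distal at 0.27. Of 13 probe sets on the list of protease inhibitors and the plasminogen system, 5 were higher (38.5%) and 3 lower (23.1%). Over all probe sets these shares were 15.7% and 24.4%. All 3 lower ones were for the single gene Timp3. With 1 probe set a gene the list had 4 higher (50%) and 1 lower (12.5%) of 8, against 15.4% and 25.2% of all genes.

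Sfrp2, a secreted modulator of Wnt signalling made by fibroblasts, was the second-ranked member. Its signal was 1338 under IL-13, 1889 under TSLP, and 2743 and 1320 under TGF-beta, against 472 on PBS local and 240 on PBS distal. The cytokine arrays were 1.43 or more above PBS local, and TGF-beta mouse 1 was the highest. Dkk3, a relative of the Dickkopf Wnt inhibitors, differed by 0.51, 0.67, 0.89 and 0.79, and Ccn4, a Wnt-inducible matricellular gene, by 0.85, 0.37, 1.64 and 1.14. Of 14 probe sets for Wnt modulators, 6 were higher and 1 lower (42.9% and 7.14%, against 15.7% and 24.4% of all probe sets).

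Receptors from the list of myeloid lectins and pattern receptors were also among the members. Clec4d, a C-type lectin receptor that recognises microbial glycolipids, had 2073 and 1789 units under IL-13 and TSLP and 1522 and 1314 under TGF-beta, against 582 on PBS local and 49.4 on PBS distal. The rule places the cytokine arrays above PBS local, and PBS distal lay below PBS local. Clec4n, the gene of dectin-2, a receptor for fungal mannans, differed by 0.71, 0.68, 0.64 and 0.92, and its other probe set by 0.69, 0.61, 0.65 and 0.82. Tlr2, a receptor of bacterial lipoproteins, differed by 1.10, 1.03, 0.75 and 0.56. Colec12, a scavenger receptor, differed by 0.98, 0.70, 1.14 and 1.52, but PBS distal was at 0.48. In the list of lectins and pattern receptors, 6 of 18 probe sets were higher (33.3%) and 2 lower (11.1%), against 15.7% and 24.4% of all probe sets. Of the 18, 4 were past 1.5-fold in every array.

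Markers of other leukocytes are given beside these values. The summed signal of 3 neutrophil markers (S100a8, S100a9 and Ngp) ran from 5576 to 10307 on the cytokine arrays, against 4101 on PBS local and 679 on PBS distal. The calprotectin genes S100a8 and S100a9 were higher on all 4 arrays, with smallest differences of 0.25 and 0.17, while Ngp, a gene of neutrophil granules made in the marrow, was lower by -0.50, -0.50, -0.67 and -1.82. The 4 macrophage markers summed to 18904 to 22881 under the cytokines and to 19402 on PBS local, so those groups overlapped. Their part in the chemokine and lectin values was not tested. In whole skin, fewer cells of a type and less RNA per cell cannot be told apart.

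The granzyme genes Gzma and Gzmb were higher members, with PBS distal below PBS local. Gzma, a granule protease of T and NK cells, had 379 units under IL-13, 549 under TSLP, and 429 and 550 under TGF-beta, against 189 on PBS local and 49.1 on PBS distal. The rule already sets the cytokine arrays of a higher member above PBS local, and PBS distal lay lower still. Gzmb differed by 0.64, 1.38, 0.55 and 0.86. Of 8 probe sets in the T and NK cell list, 3 were higher and 1 lower (37.5% and 12.5%, against 15.7% and 24.4% of all probe sets). The lower one was Thy1, with -0.26, -0.56, -0.47 and -0.30. Of the 4 markers Cd3e, Cd3g, Gzma and Gzmb, taken without the filter, both granzymes were higher on all 4 cytokine arrays. One of the CD3 genes was lower on all 4.

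Saa3, an acute phase gene that inflamed tissue expresses locally, was the brightest of the leading members. It had 10749 and 9981 units under IL-13 and TSLP and 11649 and 11467 under TGF-beta, against 5386 on PBS local and 231 on PBS distal. The 4 differences, 0.99, 0.89, 1.11 and 1.09, had an SD of 0.10, while PBS distal was at -4.39. Rarres2, the gene of the chemoattractant chemerin, had differences of 1.38, 1.24, 1.12 and 0.75, and both of its other probe sets were higher on all cytokine arrays. Crp, an acute phase pentraxin of the liver in the same list, was the first-ranked lower member. It had 73.4 and 51.5 units under IL-13 and TSLP and 36.7 and 69.2 under TGF-beta, against 180 on PBS local and 146 on PBS distal. Only PBS local reached the median signal for Crp among the outlet arrays, so its level was near the limit of the filter. In the acute phase list, 3 of 16 probe sets were higher (18.8%) and 4 lower (25%), near the 15.7% and 24.4% of all probe sets.

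Car4, a membrane carbonic anhydrase, had 1636 units under IL-13, 291 under TSLP, and 152 and 172 under TGF-beta, against 68.6 on PBS local and 62.8 on PBS distal. IL-13 was far above the other 3 cytokine arrays, which were themselves above both PBS arrays. A second probe set of Car4 differed by 4.0, 1.80, 0.88 and 1.05. Sox4, a transcription factor of progenitor cells, differed by 0.90, 0.78, 1.34 and 1.86, with PBS distal at 0.57, and both of its other probe sets were higher on all 4 arrays. Ltbp2, a latent TGF-beta binding protein of elastic fibres, was higher by 1.01, 0.64, 0.77 and 0.73. Steap1, a metalloreductase gene, was higher by 1.00, 0.95, 0.71 and 0.69, and Pcsk5, a proprotein convertase gene, by 1.01, 0.82, 0.76 and 0.68. In these 3 genes PBS distal was below PBS local. Aldh1a3, which makes retinoic acid, differed by 1.10, 1.64, 0.71 and 1.61, and Gstt2, a glutathione transferase gene, by 0.66, 1.39, 0.92 and 0.96. The values of both were dim on PBS local, 46.3 and 79.9 units.

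**Figure D2:**
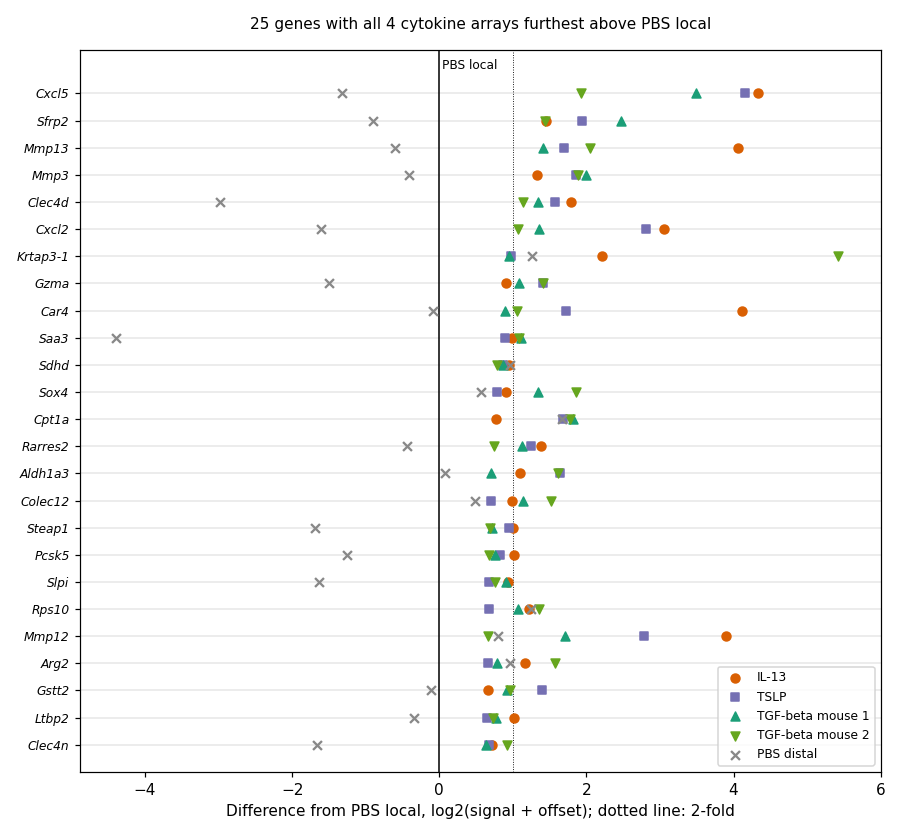
Differences from PBS local in log2(signal + offset) for the 25 named genes with the largest smallest difference, 1 row a gene, with a coloured point for each cytokine array and a cross for PBS distal. Cxcl5, Sfrp2, Mmp13, Mmp3, Clec4d and Cxcl2 have all 4 cytokine points beyond the dotted 2-fold line, and Sdhd, Cpt1a and Rps10 have PBS distal among or just beyond the cytokine points.

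In several higher members PBS local stood apart from PBS distal as well as from the cytokine arrays. A probe set of Rps10, a ribosomal protein gene, had 10274 and 6998 units under IL-13 and TSLP and 9282 and 11321 under TGF-beta, against 4390 on PBS local, but 10415 on PBS distal. PBS local was the low array of the 6. Its 4 other probe sets past the filter differed less, and 1 of the 4 was higher on every cytokine array. The Sdhd probe set, for a subunit of succinate dehydrogenase, differed by 0.94, 0.87, 0.86 and 0.79, with PBS distal at 0.97, and the other Sdhd probe set lay on neither side. For Cpt1a, the carnitine acyltransferase of mitochondria, the differences were 0.77, 1.68, 1.82 and 1.77 with PBS distal at 1.67, and the other probe set had a smallest difference of 0.02. These 3 probe sets carry the suffix x_at, which marks probes that can bind other transcripts. Arg2, a mitochondrial arginase, differed by 1.16, 0.66, 0.78 and 1.57, with PBS distal at 0.96.

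Arg1, the arginase of alternatively activated macrophages, differed by 3.37 under IL-13, 1.66 under TSLP, and 1.93 and 0.60 under TGF-beta. Its PBS distal value was 0.95, above that of TGF-beta mouse 2. Fn1, the gene of fibronectin, differed by 1.84, 0.68, 1.56 and 0.63, with PBS distal at 0.59. Bambi, a decoy receptor that damps TGF-beta signals, differed by 0.42, 0.60, 1.07 and 2.41, so the TGF-beta mice were the highest of the 4. Of 38 probe sets for TGF-beta response genes, 8 were higher and 3 lower, or 21.1% and 7.89%, against 15.7% and 24.4% of all probe sets. With 1 probe set a gene the same list had 6 higher and 0 lower of 25. Of 24 for IL-4 and IL-13 response genes, 1 was higher and 8 were lower, 5 of them for the single gene Tgm2. With 1 probe set a gene that list had 1 higher and 3 lower of 14 (21.4%, against 25.2% of all genes), and its median under IL-13 was 0.61. Il4ra, a receptor chain of both IL-4 and IL-13, was among the lower ones with -0.42, -0.56, -1.06 and -0.84, and PBS distal was at -1.03.

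Interferon-response genes were members mainly in the higher direction. Ifit2 had 748 and 817 units under IL-13 and TSLP and 548 and 515 under TGF-beta, against 323 on PBS local and 456 on PBS distal. All 4 cytokine arrays were above both PBS arrays. Cxcl10, a chemokine for activated T cells, differed by 1.32, 1.90, 0.68 and 0.24, and Gbp3, a guanylate-binding protein gene, by 0.60, 1.43, 0.54 and 0.30. The list had 10 of 22 probe sets higher (45.5%, against 15.7% of all probe sets) and 0 lower. Its medians were 0.24 under IL-13, 1.04 under TSLP, and 0.06 and 0.01 under TGF-beta. Acod1, which makes itaconate in activated macrophages, differed by 2.47, 2.14, 0.68 and 0.38, and Vcam1, an endothelial adhesion molecule for leukocytes, by 0.57, 0.54, 0.58 and 0.65.

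Hair follicle genes were higher in 10 of 21 probe sets (47.6%, against 15.7% of all probe sets) and lower in 0, but with very unequal sizes. Krtap3-1, a hair keratin-associated protein, had 112 units under IL-13, 31.5 under TSLP, and 30.4 and 1258 under TGF-beta, against 2.64 on PBS local and 44.6 on PBS distal. TGF-beta mouse 2 alone was bright, and TSLP and TGF-beta mouse 1 lay below PBS distal. The inner root sheath keratin Krt25 differed by 4.76, 0.55, 0.53 and 8.37, with PBS distal at 3.56. Krtap3-1 and Krt86, also on the list, were far below the median signal on PBS local (2.64 and 1.97 units). Both reached the filter only through TGF-beta mouse 2, where they were high. Krt25, at 12.3 units on PBS local, reached it only through IL-13 and that mouse. The 10 higher probe sets thus include members let in by the arrays where they were high. Dct, another of the 10, was above the median signal on PBS local (297 units). The 4 hair follicle markers summed to 1986, 101, 135 and 32960 on the cytokine arrays, against 70.9 on PBS local and 1118 on PBS distal. PBS local was the lowest array for these markers.

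Among the lower members, Lyve1 and Tgm2 were the clearest against both PBS arrays. Lyve1, a hyaluronan receptor of lymphatic endothelium and of some macrophages, had 535 and 550 units under IL-13 and TSLP and 511 and 445 under TGF-beta, against 1107 on PBS local and 1835 on PBS distal. The 4 cytokine arrays lay within a narrow range, with an SD of 0.13 around a mean difference of -1.08. A second Lyve1 probe set differed by -0.89, -0.78, -1.10 and -1.55. Tgm2, a transglutaminase that crosslinks matrix proteins, had 1655 and 1532 units under IL-13 and TSLP and 1120 and 1426 under TGF-beta, against 3227 on PBS local and 3504 on PBS distal. All 5 Tgm2 probe sets past the filter were lower on every cytokine array. The summed lymphatic markers Lyve1 and Prox1 were 816 to 1403 under the cytokines, against 2414 on PBS local and 3643 on PBS distal. Nearly all of that sum was the second Lyve1 probe set, with 2407 units on PBS local and 3624 on PBS distal. The sum thus repeats Lyve1 and says little of Prox1. In the endothelial and lymphatic list 3 of 16 probe sets were higher (18.8%) and 2 lower (12.5%), against 15.7% and 24.4% of all probe sets. Both lower ones were for Lyve1. The higher ones were for Pdpn, with 0.59, 0.39, 0.37 and 0.16, and for Flt1 and Cldn5.

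**Figure D3:**
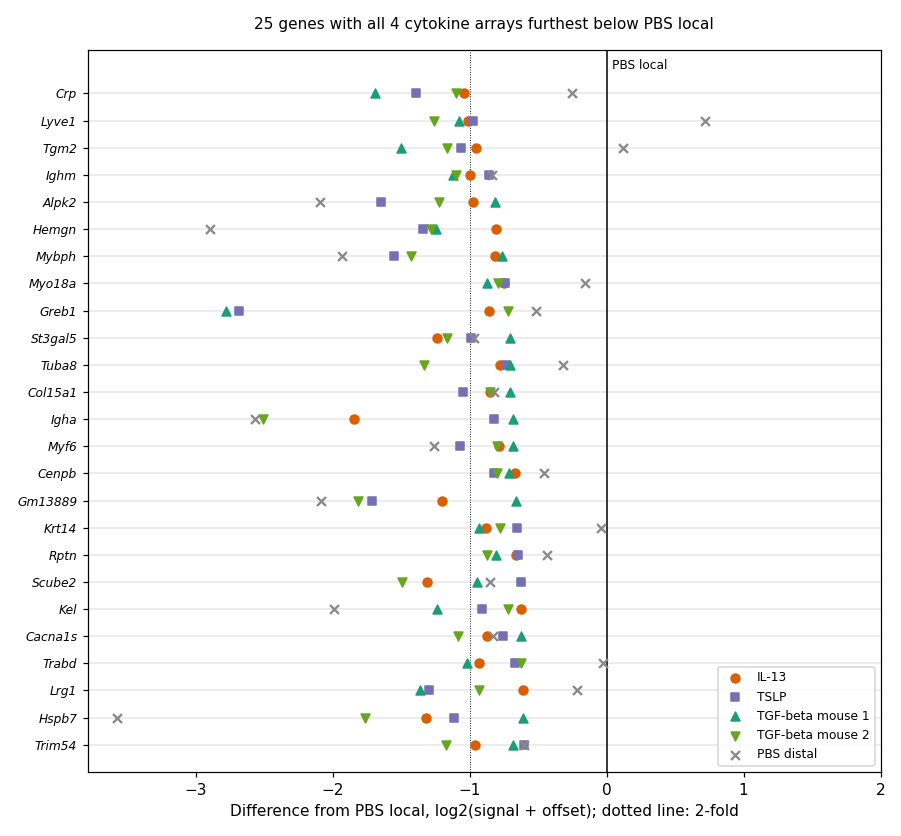
Differences from PBS local in log2(signal + offset) for the 25 named genes with the largest negative smallest difference, 1 row a gene, with a coloured point for each cytokine array and a cross for PBS distal. For Crp, Lyve1 and Tgm2 the cross lies near or above 0, and for Alpk2, Hemgn, Igha and Hspb7 it lies below the cytokine points.

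Genes of basal keratinocytes were more often lower than higher, while those of differentiated keratinocytes were mostly on neither side. Krt14, a keratin of basal keratinocytes, had 229 and 271 units under IL-13 and TSLP and 219 and 247 under TGF-beta, against 443 on PBS local and 430 on PBS distal. The differences were -0.88, -0.66, -0.93 and -0.78, from a dim probe set. Its 2 other probe sets, at 8346 and 7821 units on PBS local, were lower by smaller mean differences of -0.31 and -0.33, against -0.81 for the dim one. Aqp3, the aquaglyceroporin of the epidermis, was lower by -0.58, -0.69, -0.59 and -0.60. Itgb4, the hemidesmosomal integrin chain, was lower by -0.48, -0.31, -0.60 and -0.62, and the basal keratin Krt5 by -0.22, -0.31, -0.17 and -0.13. Rptn, a cornified envelope gene, was lower by -0.66, -0.65, -0.81 and -0.87, while Flg, the gene of filaggrin in the same layers, was higher by 0.21, 0.12, 0.39 and 1.22, with PBS distal at 1.54. Of 15 probe sets for differentiated and stressed keratinocytes, 1 was higher and 3 were lower (20%, against 24.4% of all probe sets), and 11 lay on neither side. Of 14 basal keratinocyte probe sets, 9 were lower (64.3%, against 24.4% of all probe sets) and 0 higher. Their medians were -0.25, -0.24, -0.20 and -0.28 on the separate arrays and 0.38 on PBS distal. The 4 keratinocyte markers summed to 27456 to 37404 under the cytokines, against 33855 on PBS local and 41380 on PBS distal, so this sum overlapped.

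Muscle genes made up another part of the lower members, and in Alpk2, Mybph, Myf6 and Hspb7 PBS distal was lower still. Alpk2, a kinase of striated muscle, had 325 and 193 units under IL-13 and TSLP and 367 and 269 under TGF-beta, against 665 on PBS local and 135 on PBS distal. PBS local was the highest array of the 6. Mybph, a myosin-binding protein gene, differed by -0.81, -1.56, -0.76 and -1.43 with PBS distal at -1.93, and Myf6, a myogenic regulator, by -0.78, -1.07, -0.68 and -0.80 with PBS distal at -1.26. Hspb7, a small heat shock protein of muscle, differed by -1.32, -1.11, -0.61 and -1.76 with PBS distal at -3.57. The calcium channel gene Cacna1s differed by -0.87, -0.76, -0.62 and -1.08, with PBS distal at -0.83. Actn3, Ryr1 and Casq1, also on the mature muscle list, were lower too, with PBS distal at 0.02, -0.21 and -0.36. The median difference of PBS distal was -1.83 over the regenerating and stressed muscle list and 0.05 over the mature one. Of 22 probe sets for regenerating and stressed muscle, 9 were lower (40.9%) and 0 higher, as were 8 (33.3%) and 0 of 24 for mature skeletal muscle, against 24.4% lower over all probe sets. The 4 regenerating muscle markers summed to 2049 to 4098 under the cytokines, against 3316 on PBS local and 312 on PBS distal, and the 4 mature markers to 34673 to 45449, against 40721 and 59514. Both sums overlapped PBS local, and their part in the lower members was not tested.

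Erythroid genes and Igha were also lower than PBS local, and PBS distal was lower still. Hemgn, a gene of erythroid precursors, had 412 and 277 units under IL-13 and TSLP and 298 and 290 under TGF-beta, against 744 on PBS local and 76.3 on PBS distal. Klf1, the erythroid master regulator, differed by -0.60, -0.87, -1.12 and -1.0 with PBS distal at -2.27, and Kel, an erythrocyte surface protein gene, by -0.63, -0.91, -1.24 and -0.72 with PBS distal at -1.99. Of 7 erythroid probe sets, 6 were lower (85.7%, against 24.4% of all probe sets) and 0 higher. However, Klf1 and Car1 among the 6, like Kel, reached the filter of 165 only through PBS local, where they were high. Of the 3 erythroid markers found, 1 was lower and 1 higher on all 4 cytokine arrays, and they summed to 511 to 646 under the cytokines, against 1006 on PBS local and 129 on PBS distal. Igha, the heavy chain of IgA, had 223 and 481 units under IL-13 and TSLP and 533 and 130.5 under TGF-beta, against 872 on PBS local and 125 on PBS distal. It was thus low on IL-13 and TGF-beta mouse 2 and less so on the other pair. One probe set of Ighm was lower by -1.0, -0.86, -1.12 and -1.10, with PBS distal at -0.83 and so above all 4 cytokine arrays, but the 3 others past the filter lay on neither side. That lower Ighm probe set carries the suffix x_at and also reached 165 units only through PBS local. In the B and plasma cell list 6 of 10 probe sets were lower (60%, against 24.4% of all probe sets) and 0 higher. The Igha probe set above and its 2 others were among the 6, as was the lower Ighm probe set. With 1 probe set a gene the list had 3 lower and 0 higher of 5. The 4 B and plasma cell markers summed to 427 to 1268 under the cytokines, against 1558 on PBS local and 291 on PBS distal.

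Other lower members had PBS distal nearer to PBS local. Greb1, an oestrogen-responsive gene, had 2 levels on the cytokine arrays, with 277 and 308 units under IL-13 and in TGF-beta mouse 2, and 58.7 and 53.2 under TSLP and in TGF-beta mouse 1, against 525 on PBS local and 359 on PBS distal. Lrg1, a secreted glycoprotein of inflammation, was lower by -0.61, -1.3, -1.36 and -0.93, with PBS distal at -0.21. Myo18a, an unconventional myosin gene, was lower by -0.75, -0.74, -0.87 and -0.79, with PBS distal at -0.15. Col15a1, a basement membrane collagen gene, was lower by -0.85, -1.05, -0.70 and -0.85, but PBS distal was also at -0.82. Collagens as a list had 5 of 31 probe sets higher and 5 lower (16.1% each, against 15.7% and 24.4% of all probe sets), with a median mean difference of 0.07. Pon1, a paraoxonase gene, was lower by -1.68, -0.54, -1.10 and -2.08 while PBS distal was at 0.95.

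The clock genes Arntl, which drives the positive limb, and Dbp, an output gene, were members in opposite directions. Arntl differed by -0.29, -0.88, -0.76 and -0.81, with PBS distal at -0.14, and Dbp by 0.19, 0.85, 0.59 and 0.49, with PBS distal at 0.48, above the IL-13 array. The other Dbp probe set was not on the same side. Nr1d1 and Clock, also on the clock list, were both lower, on the side of Arntl. Nr1d1 differed by -0.53, -0.18, -0.22 and -0.42, with PBS distal at -0.20, and Clock by -0.11, -0.06, -0.03 and -0.22. The labels used here give no hour of sampling. Of 15 probe sets for clock genes, 1 was higher (6.67%) and 3 were lower (20%), both below the shares over all probe sets. Exocrine pancreas genes had 0 of 28 probe sets on either side, against 15.7% higher and 24.4% lower over all probe sets. Their medians were 1.63 under IL-13, 1.47 under TSLP, -1.18 in TGF-beta mouse 1 and 1.19 in mouse 2.

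**Figure D4:**
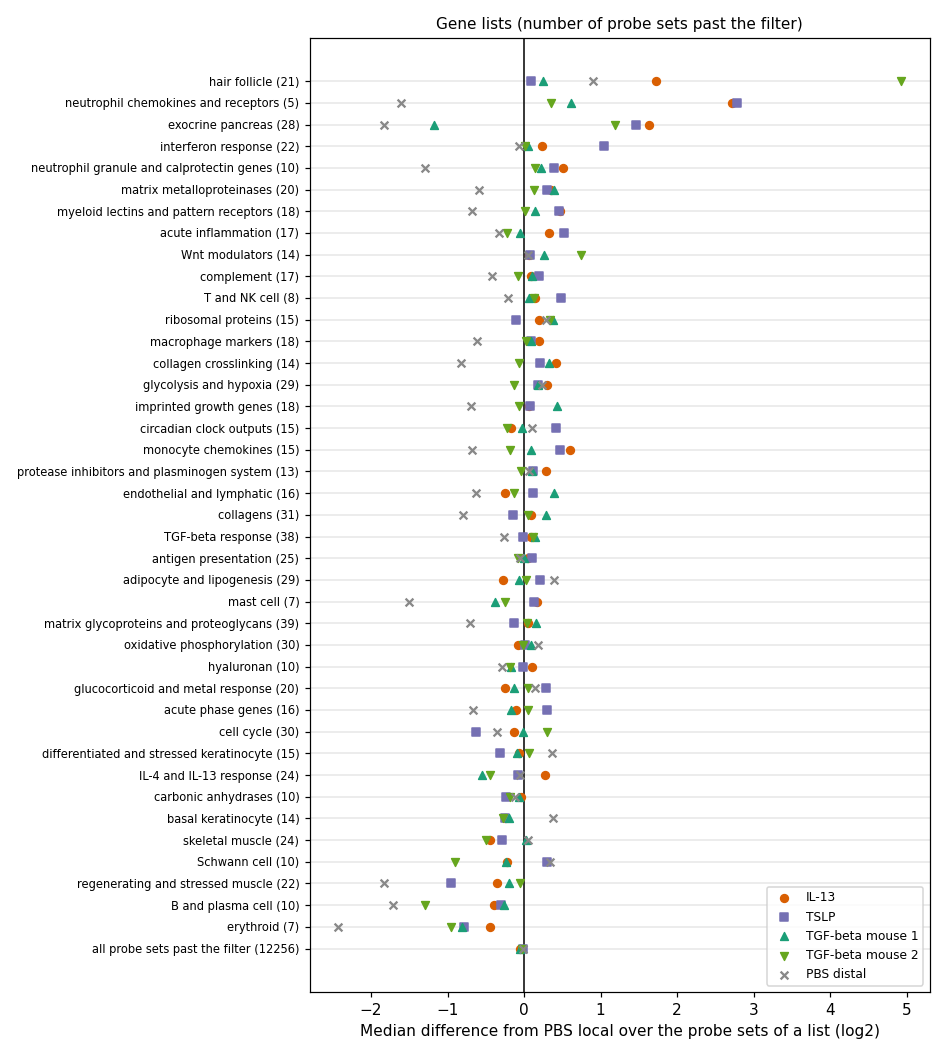
Median difference from PBS local, in log2(signal + offset), over the probe sets of each gene list, with the number of probe sets in brackets, a coloured point for each cytokine array and a cross for PBS distal. Neutrophil chemokines and erythroid genes have all 4 cytokine points on one side of 0, and exocrine pancreas genes have TGF-beta mouse 1 on the other side of the rest.

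The 2-fold line fell within a close run of values. Just inside it on the higher side were Mmp3 (smallest difference 1.33), Clec4d (1.14) and Cxcl2 (1.07), and just outside it Krtap3-1 (0.94), Gzma (0.91) and Car4 (0.90). On the lower side Crp (-1.04) lay inside, and Lyve1 (-0.98), Tgm2 (-0.95) and Ighm (-0.86) outside. The set past 2-fold also held 1 higher probe set with no gene name here, with differences of 2.1, 1.33, 1.76 and 1.27 and PBS distal at -1.65. Of the 72 probe sets past 1.5-fold, 68 name 1 gene, for 32 higher and 31 lower genes. The 59 genes that ranked first by either PBS comparison, not all of them past 1.5-fold, had 32 other probe sets past the filter, of which 25 lay on the same side, 7 on neither and 0 on the opposite side.

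The array that came nearest to PBS local differed between the directions. Among the 38 higher probe sets it was TGF-beta mouse 2 in 15, TSLP in 10, TGF-beta mouse 1 in 9 and IL-13 in 4. Among the 34 lower ones it was TGF-beta mouse 1 in 12, TSLP in 11, IL-13 in 9 and TGF-beta mouse 2 in 2. IL-13 gave the largest difference in 19 of the 38 higher ones and in 1 of the 34 lower ones. TGF-beta was set against the mean of IL-13 and TSLP in limma, a contrast that uses neither PBS array. Its residual spread is that between the 2 TGF-beta mice alone. Over 12256 probe sets 0 were called (0%), with 621 at an unadjusted p under 0.05 and a lowest adjusted p of 0.642. Differences in that contrast were -2.5 for Cxcl1, -1.94 for Car4 and -1.72 for Cxcl2, each with an adjusted p of 0.642, -1.54 for Cxcl5 (adjusted p 0.949) and 0.76 for Sox4 (0.949).

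Set against PBS distal instead, the same 4 arrays had 261 probe sets called higher (2.11% of 12349) and 123 lower (0.996%) in limma. That contrast mixes the cytokines with the pump outlet and the body site. It also shares the cytokine arrays with the rule, so the members' differences are given with no test. Saa3 differed by 5.41 from PBS distal, Clec4d by 4.45, Gzma by 2.70 and Mmp3 by 2.18. Cxcl5 differed by 4.79 and Cxcl2 by 3.69. Lyve1 differed by -1.80 and Tgm2 by -1.29. Hemgn and Hspb7, lower than PBS local, were above PBS distal by 1.72 and 2.37.

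**Figure D5:**
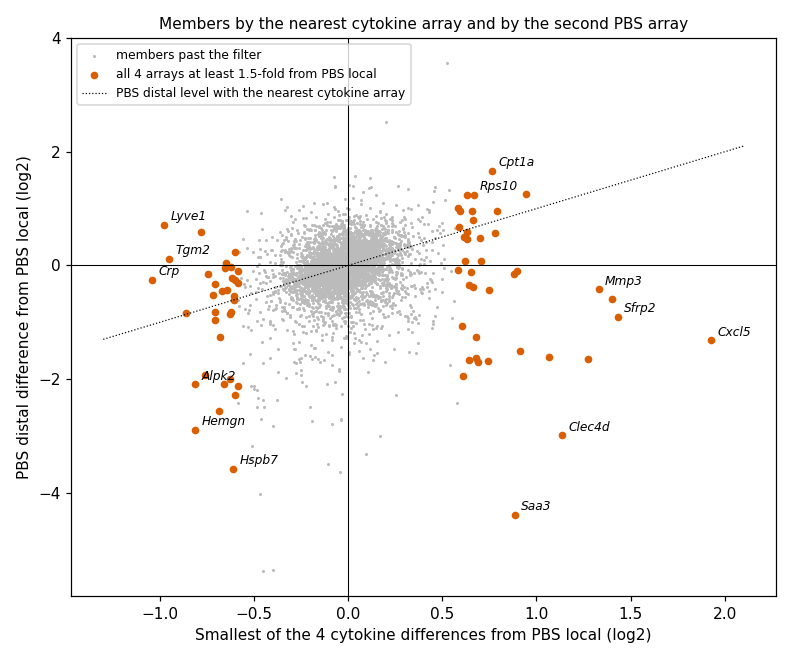
Members past the filter (grey) by the smallest of the 4 cytokine differences from PBS local (x axis, log2) and by the difference of PBS distal from PBS local (y axis, log2), with the 72 past 1.5-fold in orange and the line of equal values dotted. Cxcl5, Sfrp2, Mmp3, Clec4d and Saa3 lie right of 0 with PBS distal below 0, Lyve1 and Tgm2 lie left of 0 with PBS distal above 0, and Rps10, Cpt1a, Alpk2, Hemgn and Hspb7 lie where PBS distal passes the nearest cytokine array.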

How the data were processed

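The authors deposited 1 linear signal intensity per probe set and array, and the submitters' processing notes name MAS5. The sources used here give no version of it, and detection calls were not used. AFFX controls (64 of 22690 probe sets) were left out. The platform annotation gave 1 gene for 20380 of the rest, several for 691 and none for 1555, which stay unnamed here. Symbols were updated through RefSeq (GRCm38.p6) for 20351.

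Trimmed means (2% left out at each end) set the scale of every array to their common mean, and the offset of 27.4 units is percentile 25 over the scaled table. Limma 3.58.1 under R 4.3.3 (lmFit, eBayes with an intensity trend, Benjamini-Hochberg adjustment, threshold 0.05) used all 6 arrays in 3 groups, namely cytokine, PBS local and PBS distal, with 3 residual degrees of freedom. Differences between cytokines count as error there, and each lone PBS array is assumed to vary like the cytokine arrays. The contrast of TGF-beta with the other cytokines used the 5 labelled groups, with 1 residual degree of freedom. Its residual spread is that between the 2 TGF-beta mice, and the lone IL-13 and TSLP arrays are assumed to vary like them. The fit was tested on simulated data. Precision is limited by the number of arrays, and p-values measure only the spread between them.

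Named genes were the first 25 each way by the smallest difference, the first 15 each way from the nearer PBS array, up to 4 a list, and the 3 on each side of 2-fold. Alternatives covered the offset, scaling, filter, arrays left out, the choice of PBS array and the grouping. The members and the 40 lists were chosen with earlier results of these data known.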

Additional observations from a re-analysis of the deposited data

How the results depend on the processing

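Against PBS local limma called 0 probe sets in every setting run that kept PBS local, with a lowest adjusted p between 0.161 and 0.98 and 324 to 1326 at an unadjusted p under 0.05. With PBS distal as the reference it called 384. The split of members depended on scaling. Of all members 39.2% were higher, against 46.7% after quantile normalization and 52.2% (2491 higher, 2279 lower) with each array centred on its median.

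Higher and lower counts on one side were 3840 and 5050 without the filter, and the higher count was 2908 without the TSLP array and 3106 against PBS distal. Probe sets past 1.5-fold numbered 13 higher and 9 lower with the offset at the median, 21 lower with arrays centred on their medians, 79 and 71 without the TSLP array, 58 lower with the TGF-beta mice averaged, 66 higher without the filter, 23 and 21 with every outlet array past the filter, and 588 and 343 against PBS distal. Past 2-fold they numbered 14 and 2 with the offset at the 10th percentile, 4 and 0 with it at the median, 11 and 4 without TSLP, 4 lower without IL-13, 3 lower with the TGF-beta mice averaged, 4 and 0 with every outlet array past the filter, and 223 and 57 against PBS distal. Quantile normalization and centring each left 0 lower ones past 2-fold. From both PBS arrays at 1.5-fold, counts were 11 and 3 with the offset at the median, 43 and 30 without TSLP, 17 lower without IL-13, and 15 and 5 with every outlet array past the filter. Without TGF-beta mouse 1 or mouse 2 in turn, 81 or 66 probe sets were past 1.5-fold higher, 60 or 44 lower, 34 or 12 past 2-fold higher, 4 or 1 lower, and 62 or 46 past 1.5-fold higher than both PBS arrays. Fewer arrays that must lie on one side, or fewer probe sets tested, raise or lower these counts by construction. For the other moves the cause was not tested.

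Of 1670 values of named probe sets under 10 settings, 14 changed sign, all close to 0. After quantile normalization the smallest difference was -0.0619 for Ccl6, 0.0798 for Cish, -0.10 for H2-Aa, 0.0553 for Clock, 0.0283 for Ccna2, 0.064 for Mcm3, -0.0047 for Igf2r and -0.0164 for Ndufb5. After centring it was 0.0688 for Cish, 0.0604 for Clock, 0.0298 for Ccna2, 0.0635 for Mcm3, -0.0037 for Igf2r and 0.0072 for Cycs. List medians moved by more than the spread between arrays for TGF-beta response genes with 1 probe set a gene (0.13), for macrophage markers after quantile normalization (0.0655) and for basal keratinocyte genes (-0.25 after quantile normalization, -0.16 after centring); these 2 scalings of the lists were added after seeing the data. No paired analysis was possible because the groups compared share fewer than 2 replicate numbers. MAS5 values carry no probe-level spread here, so signal over background limits the dim genes by an unknown amount.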
